A study of Populus trichocarpa with 28 samples.

Results

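The chromosome 13 block comprised every gene in the deposited count tables of Populus trichocarpa with an ID from Potri.013G137000 to Potri.013G143500, taken by ID number. This gave 66 of 41335 genes. The block was chosen by its heavy antisense reads, reads from the strand opposite to the annotated gene, in these same libraries. Its antisense totals are therefore a description and were not tested. Tests of antisense reads between groups reuse the same libraries, so their p-values are not independent of that choice. The study compared drought with continued watering in 28 strand-specific libraries. In the short-term experiment, soil water was kept at 40% of field capacity during 24 hours, and apex and mature leaves were sequenced as total RNA after removal of ribosomal RNA. In the long-term experiment the same water level was kept for 25 days, and apex, young leaves, mature leaves and root were sequenced as mRNA. Root was also sequenced as total RNA. Each of the 14 groups had 2 libraries, named here by the number in their titles (19 and 49 for short-term controls, 35 and 69 for short-term drought, 63 and 70 for long-term controls, 64 and 68 for long-term drought). All plants were greenhouse-grown rooted stem cuttings watered to field capacity for 2 months beforehand, and control plants stayed at that level. Nothing in the labels ties the libraries of a group to separate plants, so p-values may measure only a technical spread.

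Antisense transcripts are made from the strand opposite to a gene, by their own promoters or by read-through from a neighbour. In plants they are known to act on chromatin, on splicing or on the stability of the sense transcript, and others have no known role. Kits for mRNA select RNA with a poly(A) tail, whereas total RNA libraries also hold RNA that lacks one, such as many organellar and unprocessed transcripts. Shoot apices hold dividing cells with immature plastids, leaves hold photosynthetic cells with chloroplasts, and roots hold few green plastids. The files give IDs alone, and 0 of the 41335 IDs matched the reference table, so the roles of the members, the strands they lie on, their lengths and their exact positions are not given here. Read numbers of different members are therefore not compared as transcript levels. For the same reason the tissue labels were not checked against marker genes.

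Gene totals per library were 19014312 to 67062224 sense reads and 382726 to 2686433 antisense reads. In the 12 long-term libraries of apex, young leaves and mature leaves, the deposited sense tables appeared to hold the reads of both strands. There the sense count lay at or up to 5% above the antisense count in 16.6% to 19.5% of genes with at least 20 antisense reads, against 0.051% to 0.534% in the other 16 libraries. Sense reads in those 12 libraries are therefore the sense table minus the antisense table. The deposited intron sense tables of the 4 short-term apex libraries showed the same mark (31.9% to 33.9% of introns, against 0.0% to 1.20% elsewhere) and were treated likewise. Levels of both strands are given in CPM, scaled to the effective sense library size, and folds were tested with edgeR's quasi-likelihood test.

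The block held 5 of the 10 genes with the most antisense reads in the series, and 8 of the top 100. Potri.013G139800 had 1743672 antisense reads over all libraries, Potri.013G140100 had 894175, Potri.013G140000 had 847895, Potri.013G139200 had 590063 and Potri.013G142100 had 498377. Further down, Potri.013G141000 had 133317, Potri.013G139900 had 78531 and Potri.013G137000 had 54052. The block was not antisense throughout: 12 of 66 members had more antisense than sense reads. The most sense reads fell on Potri.013G143200, Potri.013G139900, Potri.013G142100 and Potri.013G137700. At the other end, 3 members had no read in any library and 14 had fewer than 100. Just outside the ID range, Potri.013G136700 had 36519 antisense against 426564 sense reads, and the other 9 of the 10 nearest IDs had between 0 and 562 antisense reads.

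The share of all antisense gene reads that fell in the block depended on tissue and library type, and ranged from a fraction of 1% to more than all other genes together. In long-term mature leaves the block took 5.03% to 63.4% of antisense reads, in young leaves 8.84% to 41.1%, and in apex 5.35% to 11.9%. Root mRNA lay far below, at 0.198% to 0.294%. Among total RNA libraries the share was 13.7% to 16.2% in mature leaves and 7.75% to 13.9% in apex of the short-term experiment, and 0.932% to 2.01% in root. The widest 95% Wilson interval on any of these shares spanned 0.218 percentage points and covers counting error only. On the sense strand the order differed. Total RNA libraries of short-term apex and mature leaves held 0.821% to 1.59%, and root mRNA had the lowest shares, 0.00116% to 0.00199%. Root total RNA held 0.1375% to 0.2492%. This lay within the ranges of long-term mRNA of young leaves (0.08016% to 0.3445%) and mature leaves (0.05349% to 0.8675%). The mRNA library of long-term mature leaf drought 64 lay within the range of those short-term libraries. All other mRNA libraries lay below that range. In the apex and leaves, total RNA came from the 24-hour experiment and mRNA from the 25-day experiment, so library type and experiment cannot be told apart there.

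**Figure D1:**
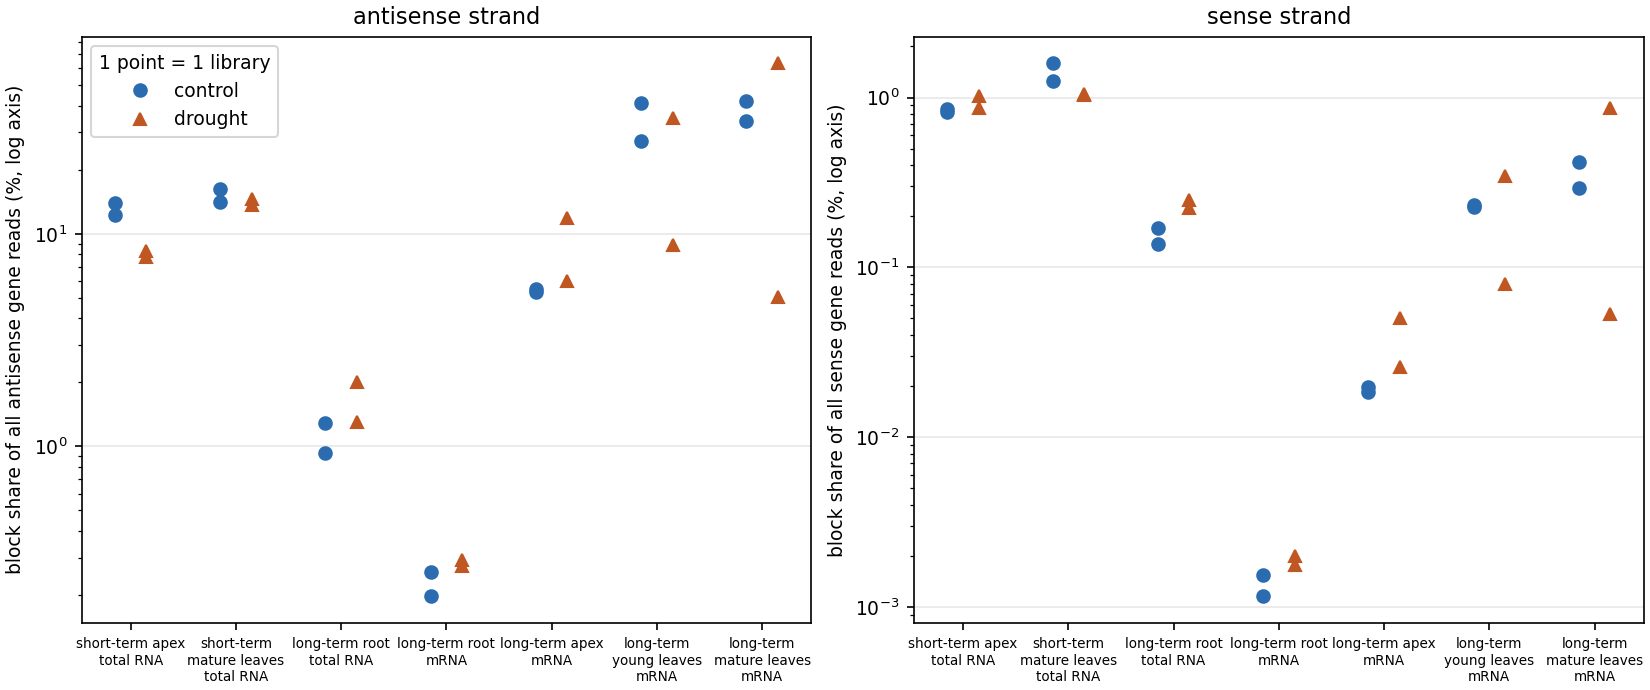
Percent of all antisense (left) and sense (right) gene reads that fell on the 66 members, on log axes, for each of 28 libraries (blue circles control, orange triangles drought). Antisense shares of the long-term leaf libraries reach 63.4%, and the drought pair of mature leaves spans 5.03% to 63.4%, while root mRNA lies at 0.198% to 0.294%.

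Within the block, antisense reads made up most of the signal in mRNA and the smaller part in total RNA. Summed over the 4 libraries of each kind, antisense reads were 85.9% of block reads in long-term mature leaves, 81.5% in apex, 80.7% in young leaves and 70.7% in root mRNA. They were 34.4% in short-term mature leaves, 33.5% in short-term apex and 21.1% in root total RNA. Over the 41269 other genes, the median antisense percentage of a library kind lay between 1.47% and 3.76%.

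A few members carried most of the mRNA signal. Potri.013G139200, Potri.013G139800 and Potri.013G140100 together held 97.8% to 99.9% of block antisense reads in each of the 16 mRNA libraries. Potri.013G139900, which lies between Potri.013G139800 and Potri.013G140100 by ID, held 62.9% to 97.3% of block sense reads in the same libraries. Between Potri.013G139900 and Potri.013G140100 lies Potri.013G140000, which held at most 0.196% of block antisense reads there. Only 6 members in root mRNA and 12 in long-term apex reached 100 reads over their 4 libraries, and 28 did so in young leaves.

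In total RNA the signal spread over many members: 47 in root, 51 in short-term apex and 50 in short-term mature leaves had at least 100 reads. The 3 antisense leaders of the mRNA libraries held 30.8% to 43.4% of block antisense reads in root total RNA, 5.79% to 28.6% in short-term apex and 2.91% to 13.9% in short-term mature leaves. Potri.013G140000 held 31.3% to 54.7% in short-term mature leaves and 8.58% to 72.9% in short-term apex. Potri.013G142100 held 24.9% to 35.9% and 11% to 36.2% in the same libraries. The sense reads were also divided among more members, with Potri.013G139900 at 0.348% to 2.20% in all 12 total RNA libraries. Potri.013G142000 and Potri.013G142100 share 1 joined entry in the intron tables, so reads of this pair are uncertain.

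**Figure D2:**
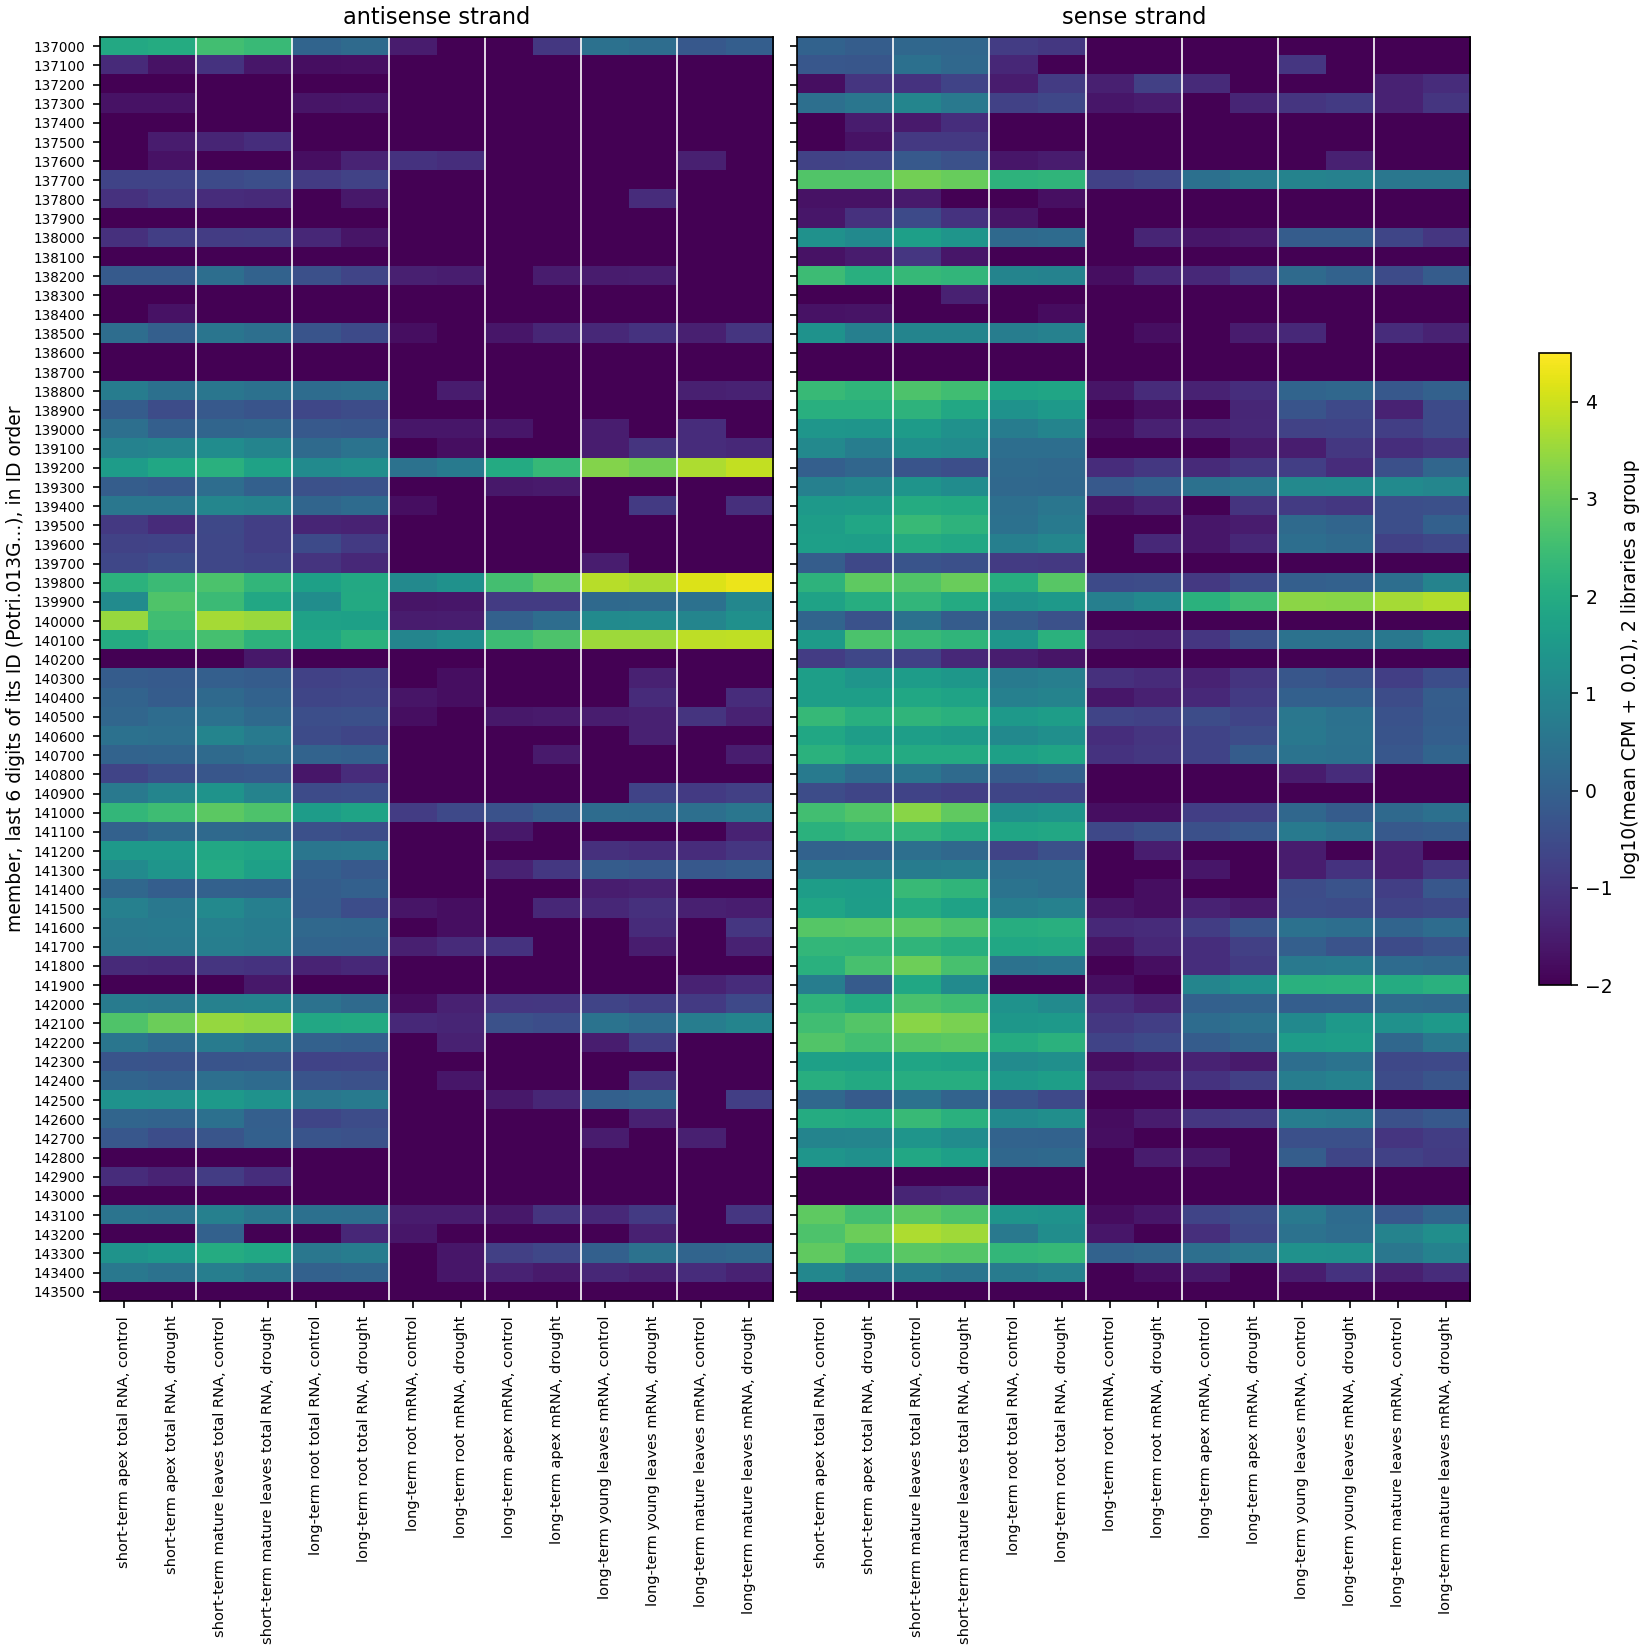
Mean level of each of the 66 members (rows, in ID order) in the 14 groups (columns), as log10(mean CPM + 0.01) over 2 libraries, antisense left and sense right. In the mRNA columns antisense Potri.013G139200, Potri.013G139800 and Potri.013G140100 and sense Potri.013G139900 have the most signal, and weaker signal lies in other rows of the shoot tissues, such as sense Potri.013G141900. In the total RNA columns most rows have signal.

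The 4 leading strands varied far less in proportion to each other than in level. Antisense Potri.013G139800 was at 9.49 and 12.8 CPM in control root mRNA and at 10608 and 18782 CPM in control long-term mature leaves. Over all 16 mRNA libraries, there were 0.238 to 0.383 antisense reads of Potri.013G139200 for each antisense read of Potri.013G139800, 0.357 to 0.888 of Potri.013G140100, and 0.263 to 0.644 sense reads of Potri.013G139900. In the 12 total RNA libraries the same proportions were 0.197 to 0.304, 0.596 to 1.82 and 0.357 to 0.519. By contrast, antisense reads of Potri.013G140000 ranged from 0.517 to 35.2 for each such read in total RNA and from 0 to 0.00378 in mRNA. The proportions are descriptions over libraries of several tissues, with more than 1 library from each tissue, and no test was made of them.

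The opposite strands of Potri.013G139800, Potri.013G139900 and Potri.013G140100 formed a second pattern that total RNA held and mRNA nearly lacked. Sense reads of Potri.013G139800 and Potri.013G140100 and antisense reads of Potri.013G139900 made up 26.3% to 87.6% of all reads on these members in the total RNA libraries. In mRNA they made up 0.0204% to 1.35%. Among total RNA libraries they varied more than the leading strands. Antisense Potri.013G139900 stood at 11.1 and 16.6 CPM in short-term apex controls, and at 974 and 36.9 CPM in drought libraries 35 and 69. In root total RNA, sense Potri.013G139800 was at 41.4 and 185 CPM in controls and at 522 and 775 CPM under drought. Sense Potri.013G140100 was at 9.33 and 43.6 CPM in the same controls and at 114 and 178 CPM under drought. The groups did not overlap in root, nor did those of 70.9% of all genes tested there on the sense strand. The controls differed from each other several-fold.

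**Figure D3:**
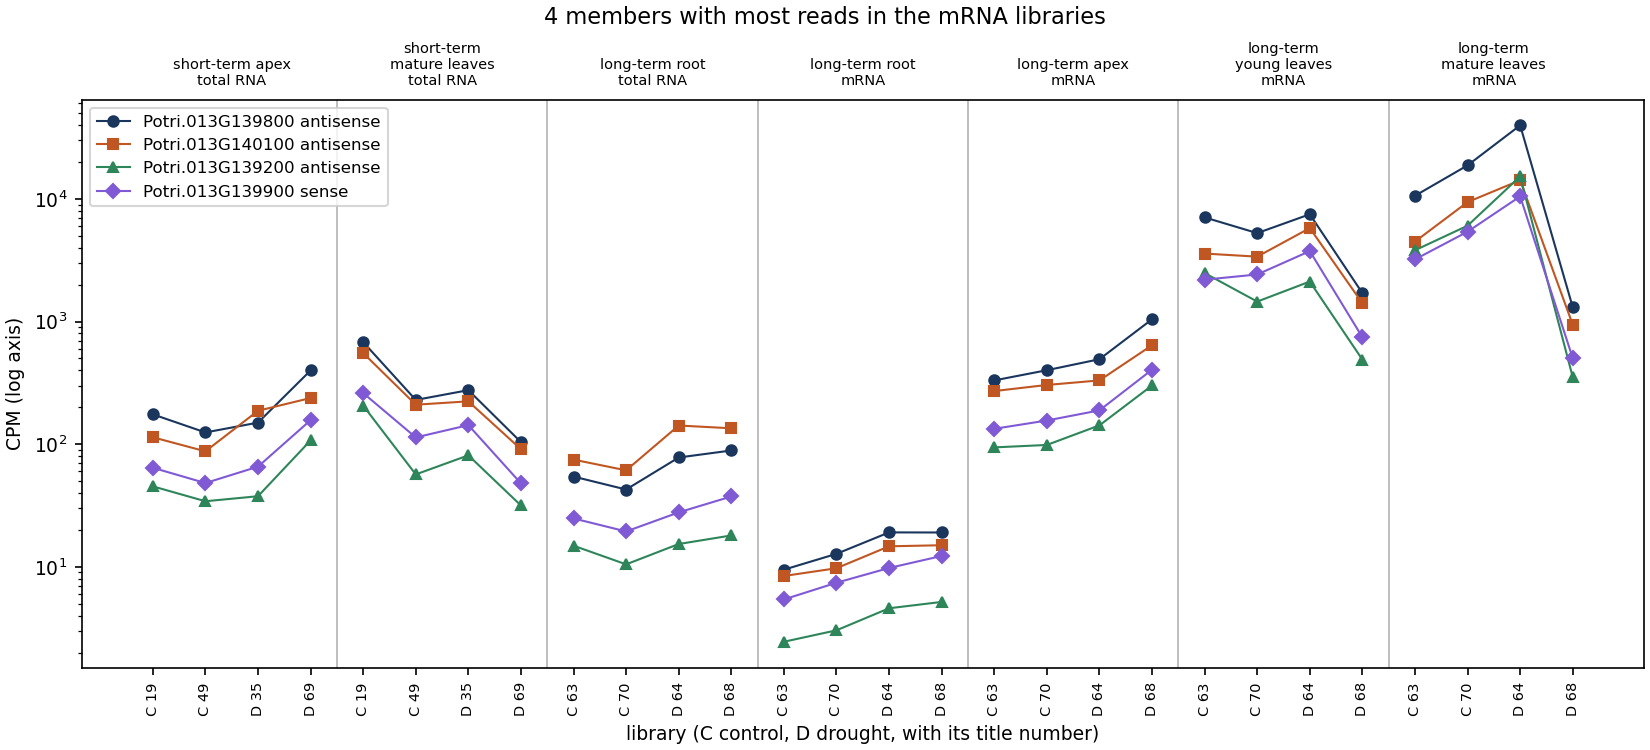
CPM of antisense Potri.013G139800, Potri.013G140100 and Potri.013G139200 and sense Potri.013G139900 in each of 28 libraries, on a log axis; lines only join libraries of one kind. The 4 strands move together, from 9.49 CPM for antisense Potri.013G139800 in root mRNA control 63 to 39812 CPM in mature leaf drought 64.

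Root was the one tissue sequenced both ways in 1 experiment, with 4 libraries of each type. Total RNA was higher than mRNA on the sense strand in 47 of 48 members tested and lower in 0, where 24.2% of all genes tested were higher. Of all 28540 genes tested, 7132 were lower. On the antisense strand 41 of 41 members were higher, where 38.9% of all genes tested were higher. Of these, 38 on the sense strand and 37 on the antisense strand had fewer than 10 reads in every mRNA library. Such members passed the filter through total RNA alone and could only be higher there, so these counts are no measure of the block. Sense Potri.013G138900 went from 1 read in 4 mRNA libraries to 7328 in 4 total RNA libraries, a ratio of 7610 (95% exact counting interval 1365 to 300632). Antisense Potri.013G142500 went from 0 to 1069 reads, at least 370-fold higher against a floor of 3 reads over the group. Antisense Potri.013G140000 was at 0 to 0.0449 CPM in mRNA and at 45.9 to 58.5 CPM in total RNA.

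For the strands that led in root mRNA, reads were ample in both library types. Antisense Potri.013G139800 was 9.49, 12.8, 19.1 and 19.1 CPM in the mRNA libraries and 54.5, 42.7, 77.9 and 88.9 CPM in total RNA, a log2 difference of 2.11 (SE 0.13, adjusted p = 2.80e-08, n = 4 libraries each). Antisense Potri.013G139200 differed by 1.98 (SE 0.15, adjusted p = 2.13e-07) and antisense Potri.013G140100 by 3.05 (SE 0.12, adjusted p = 1.30e-10). Sense Potri.013G139900 differed by 1.66 (SE 0.17, adjusted p = 3.42e-04). Their opposite strands differed far more: sense Potri.013G139800 by 9.83 (SE 0.65) and antisense Potri.013G139900, with 4 reads in all mRNA libraries, by 11.15 (SE 1.10).

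The antisense-to-sense ratio itself therefore moved in both directions. It was higher in total RNA in 4 of 40 members tested and lower in 10, where 26.8% of all genes tested were higher and 17.7% lower. The log2 change of the ratio was -7.59 for Potri.013G140100 (SE 0.64, adjusted p = 3.75e-06), -7.52 for Potri.013G139800 (SE 0.50, adjusted p = 3.70e-07) and -6.61 for Potri.013G141700 (SE 0.97, adjusted p = 1.91e-04). It was 9.25 for Potri.013G139900 (SE 0.76, adjusted p = 2.70e-06) and 3.02 for Potri.013G142100 (SE 0.54, adjusted p = 6.85e-04). Potri.013G139300 had 0 antisense and 224 sense reads in mRNA and 112 and 414 in total RNA, so its ratio was at least 20.2-fold higher in total RNA against a floor of 3 reads over the group (adjusted p = 1.35e-04). These 6 calls held without any 1 of the 8 root libraries, with adjusted p at most 0.0111. Their mRNA side often rested on few reads over the 4 libraries. Potri.013G141700 had 11 antisense and 8 sense reads there, and Potri.013G142100 had 12 and 36. Potri.013G140100 had 9 sense reads and Potri.013G139900 had 4 antisense reads. The sizes of these changes are therefore uncertain. Without a count filter 9 members were called in place of 14.

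**Figure D4:**
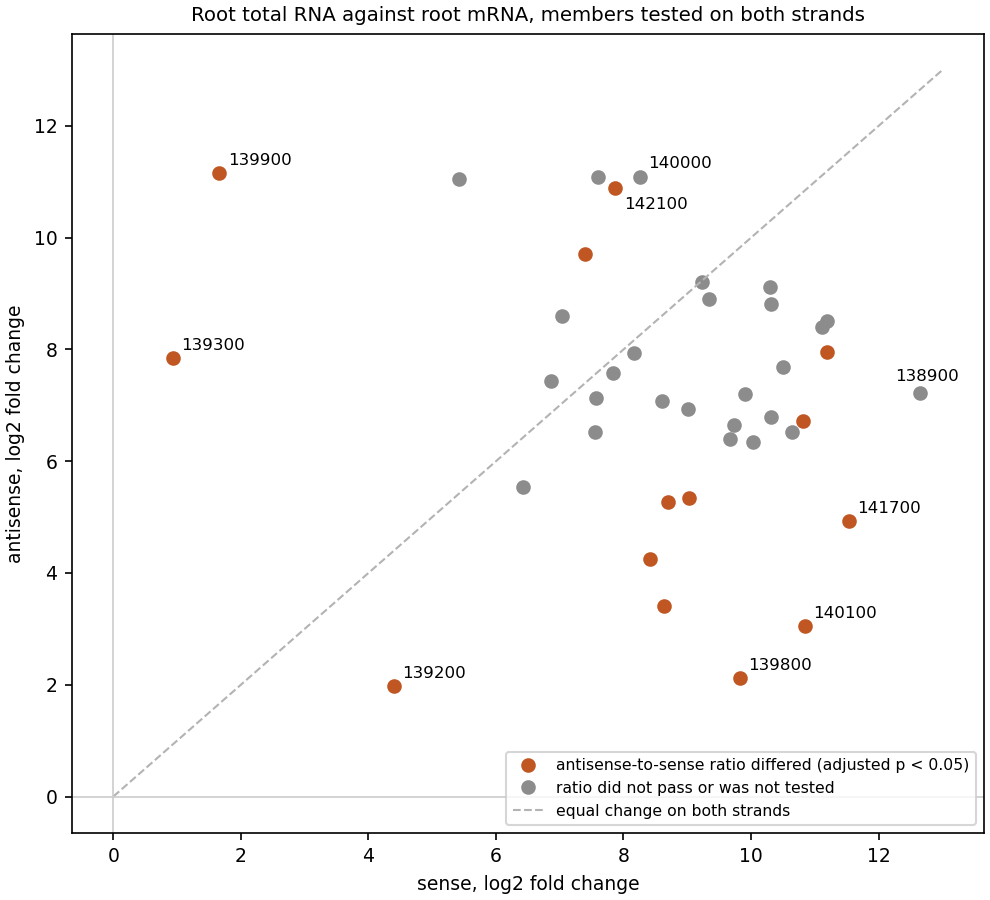
Log2 fold change of root total RNA over root mRNA for each member tested on both strands, sense on the x axis and antisense on the y axis; orange marks members whose antisense-to-sense ratio differed. Most points lie far from 0 on both axes and rest on fewer than 10 reads per mRNA library, so their place is set by the few mRNA reads. Fitted values of members with 0 mRNA reads, such as antisense Potri.013G139300, are no bound.

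Leaves were compared with root and with apex in well-watered long-term mRNA, with young and mature leaves weighted equally. Only control means were compared, but the spread was estimated from all long-term mRNA libraries, drought included. Both comparisons use the same 4 leaf libraries. The young and mature leaf libraries share the title numbers 63 and 70, so the 4 may not be independent. The block and its leading antisense members were chosen by antisense reads over all libraries, the leaf libraries included. The antisense p-values of both comparisons are therefore not independent of that choice. On the antisense strand, 10 of 11 members tested were higher in leaves than in root, where 30.4% of all genes tested were higher. No member was lower, where 648 of all 2552 genes tested were. Of the 11, 7 had fewer than 10 reads in each root library and could only be higher. Antisense Potri.013G139800 was 7071 and 5261 CPM in young leaves and 10608 and 18782 in mature leaves, against 9.49 and 12.8 in root. The log2 difference was 9.70 (SE 1.70, adjusted p = 0.00116, n = 4 against 2). Antisense Potri.013G139200 differed by 10.11 (SE 1.83, adjusted p = 0.00140), antisense Potri.013G140100 by 9.04 (SE 1.43, adjusted p = 6.37e-04) and sense Potri.013G139900 by 8.90 (SE 1.39, adjusted p = 1.78e-04). In bulk tissue, fewer cells of a type and less RNA per cell cannot be told apart. On the sense strand 28 of 34 members were higher in leaves, where 29% of all genes tested were higher, and 26 of the 34 had fewer than 10 reads in each library of 1 side. Without root control 63 or 70, 15 and 17 sense members were called, and 6 antisense members in either case.

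Potri.013G141900 had sense reads in the shoot tissues of both experiments and almost none in root. Its sense level was 120 and 154 CPM in control young leaves, 94.8 and 109 in control mature leaves, 8.35 and 9.36 in long-term apex, and 79.4 and 67.0 in short-term mature leaves. In short-term apex it was 5.49 and 6.0 CPM. In root it had 1 read in the 4 mRNA libraries together and 0 in the 4 total RNA libraries. Leaves held 9673 reads against 1 read in control root mRNA, a ratio of 17937 (95% exact counting interval 3219 to 708563). Against apex the log2 difference was 3.61 (SE 0.31, adjusted p = 2.09e-06).

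Against apex, leaves were higher in 5 of 11 members on the antisense strand, where 21% of all genes tested were higher, and in 12 of 34 on the sense strand, where 25.7% were. Of those tested, 5 and 23 had fewer than 10 reads in each library of 1 side. Antisense Potri.013G139800 stood at 331 and 401 CPM in apex, a log2 difference of 4.57 (SE 1.32, adjusted p = 0.0247). Antisense Potri.013G139200 differed by 4.89 (SE 1.42, adjusted p = 0.0253) and antisense Potri.013G140100 by 3.97 (SE 1.11, adjusted p = 0.0210). All libraries of leaves lay above both of apex for these members. Among all antisense genes tested, 48.4% had no overlap in either direction. The calls rested on few libraries. Without apex control 63, apex control 70 or mature leaf control 70, none of the 3 passed, and without young leaf control 63 antisense Potri.013G139200 and Potri.013G139800 did not (largest adjusted p 0.149, 0.152 and 0.135). Without a count filter they had adjusted p of 0.195, 0.190 and 0.165. Sense Potri.013G143200, Potri.013G141800 and Potri.013G140100 had 4, 4 and 6 reads in both apex libraries together, and none of these sense calls held without apex control 63 or 70 (largest adjusted p 0.139, 0.152 and 0.131). They also failed when low counts were kept in. Leaving out apex control 63 or 70 left 3 sense and 2 antisense members called, leaving out mature leaf control 70 left 7 and 2, and leaving out young leaf control 63 gave 25 sense members.

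In well-watered short-term total RNA, mature leaves exceeded apex in 22 of 52 members on the sense strand and lay below in 4, where 22.7% of all genes tested were higher and 27.8% lower. On the antisense strand 13 of 43 were higher and 2 lower, where 13.7% and 11.4% of all genes tested were. The spread was estimated from all short-term libraries, drought included. Sense Potri.013G143200 was 554 and 409 CPM in apex and 4679 and 5419 in mature leaves, a log2 difference of 3.23 (SE 0.30, adjusted p = 3.36e-05). Antisense Potri.013G142100 was 535 and 469 CPM in apex and 3521 and 2316 in mature leaves, a difference of 2.38 (SE 0.29, adjusted p = 4.77e-05). Antisense Potri.013G141300 differed by 2.71 (SE 0.30, adjusted p = 2.23e-05). Antisense Potri.013G140000, the most abundant of these antisense counts, was 3116 and 3103 CPM in apex and 3238 and 5089 in mature leaves, and did not pass the test. Sense Potri.013G138500 (difference -1.41, SE 0.24), Potri.013G143400 (-1.07, SE 0.20) and Potri.013G140600 (-0.96, SE 0.16) were lower in mature leaves. These 6 calls held without any 1 library. Sense Potri.013G141900 had the largest rise named, 3.51 (SE 0.72, adjusted p = 0.00824), and antisense Potri.013G140900 differed by 2.24 (SE 0.46, adjusted p = 0.00639). Both failed without apex control 19 or 49 (largest adjusted p 0.0747 and 0.0721). Sense Potri.013G141800 was 144 and 126 CPM in apex and 1873 and 398 in mature leaves, a difference of 2.91 (SE 0.84, adjusted p = 0.0299), and failed without apex control 19 or 49, without mature leaf control 19 and without a count filter (largest adjusted p 0.162). The antisense members lower in mature leaves were Potri.013G139000 (-0.97, SE 0.34, adjusted p = 0.0473) and Potri.013G138800 (-0.82, SE 0.27, adjusted p = 0.0353). These 2 failed with each of the 4 libraries left out in turn (largest adjusted p 0.411 and 0.266), without a count filter and with DESeq2, and antisense Potri.013G139000 also with RLE size factors. Without apex control 19, apex control 49 or mature leaf control 19, the antisense calls fell from 15 to 8, 6 and 9.

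Over the 7 drought comparisons and both strands, the called member with the largest fold change was antisense Potri.013G140000 in the short-term apex. Antisense Potri.013G140000 dropped from 3116 and 3103 CPM to 299 and 337 CPM. This was a log2 change of -3.36 (SE 0.28, adjusted p = 2.38e-06, n = 2 libraries each). In mature leaves it was 3238 and 5089 CPM in controls and 3063 and 3661 under drought, with overlapping groups. The difference between the tissues in the drought effect was itself -3.10 on the log2 scale (SE 0.39, adjusted p = 0.00114). Both calls held without any 1 library, with adjusted p at most 5.55e-09 for apex and 0.00116 for the difference. In root total RNA, after 25 days, it was 46.1 and 58.5 CPM in controls and 52.7 and 45.9 under drought.

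Among 42 antisense members tested in the short-term apex, 4 rose and 7 fell, where 34% of all genes tested rose and 13.7% fell. Antisense Potri.013G142100 was 535 and 469 CPM in controls and 1264 and 929 under drought, a log2 change of 1.06 (SE 0.27, adjusted p = 0.00576). Antisense Potri.013G140100 changed by 1.01 (SE 0.27, adjusted p = 0.00829) and antisense Potri.013G140900 by 1.05 (SE 0.34, adjusted p = 0.0254). The median change over all antisense genes tested was 0.60, and these 3 rises did not pass with antisense library sizes taken from antisense totals (adjusted p = 0.142, 0.219 and 0.324). They also failed without control 19 or 49 (largest adjusted p 0.200, 0.219 and 0.204), and antisense Potri.013G140900 failed without drought 35. Antisense Potri.013G139000 fell by 1.40 (SE 0.34, adjusted p = 0.00430) and had an adjusted p of 0.122 without control 49. Antisense Potri.013G138900 fell by 1.32 (SE 0.49, adjusted p = 0.0391) and failed without control 19, control 49 or drought 35 (largest adjusted p 0.223), without a count filter (0.0922) and with DESeq2 (0.121). Without control 19, control 49 or drought 69, the antisense calls numbered 3, 2 and 18 in place of 11.

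Sense counts of the apex after 24 hours of drought moved both ways. Of 51 members tested, 6 rose and 20 fell, where 29% of all genes tested rose and 33.1% fell. Sense Potri.013G139800 was 119 and 201 CPM in controls and 1053 and 495 under drought, a log2 change of 2.20 (SE 0.43, adjusted p = 0.00641). Sense Potri.013G143200 was 554 and 409 CPM and then 916 and 1256, a change of 1.11 (SE 0.24, adjusted p = 0.00628). Sense Potri.013G141900, the shoot member described above, was 5.49 and 6.0 CPM and then 1.19 and 0.251, a change of -3.09 (SE 0.57, adjusted p = 0.00448). Sense Potri.013G138500 was 18.3 and 23.2 CPM and then 5.16 and 7.51, a change of -1.78 (SE 0.24, adjusted p = 7.34e-04). Sense Potri.013G143300, among the members with most sense reads, was 888 and 768 CPM and then 268 and 332, a change of -1.53 (SE 0.20, adjusted p = 5.99e-04). The first 4 of these held without any 1 library, and for sense Potri.013G143300 that result is not given here. Sense Potri.013G141800 (1.51, SE 0.50, adjusted p = 0.0471) and Potri.013G139700 (-1.73, SE 0.39, adjusted p = 0.00740) failed without control 19 or 49 (largest adjusted p 0.296 and 0.0665), and sense Potri.013G141800 also failed without a count filter (0.164) and with DESeq2 (0.0538). Without control 19 or 49, 16 sense members were called in place of 26.

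In mature leaves after 24 hours of drought, all called sense members fell. Of 51 members tested on the sense strand, 9 fell and 0 rose, where 8.98% of all genes tested fell. Of all 24917 genes tested, 2264 rose and 2238 fell. Sense Potri.013G141000 was 2920 and 1562 CPM in controls and 849 and 808 under drought, a log2 change of -1.39 (SE 0.32, adjusted p = 0.0324). Sense Potri.013G138900 was 154 and 163 CPM and then 83.5 and 74.0, a change of -0.95 (SE 0.16, adjusted p = 0.0137). Sense Potri.013G138000 changed by -0.88 (SE 0.20, adjusted p = 0.0298). The 3 failed without control 19 or 49 (largest adjusted p 0.128, 0.107 and 0.150), and 0 sense members were called without either. Without drought 35, 18 fell. On the antisense strand edgeR called 0 of 41 members, where it called 13.8% of all genes tested. There, 8 members had an unadjusted p under 0.05 and DESeq2 called 1, and the calls changed when control 49 was left out. For unadjusted p, DESeq2 and left-out libraries no share over all genes is given here. Such counts therefore do not measure the block. Antisense Potri.013G139800 was 680 and 230 CPM in controls and 276 and 104 under drought, with overlapping groups. The drought effect itself differed between apex and mature leaves in 11 of 52 members on the sense strand, 8 with a higher change in apex and 3 with a lower one, where 12.2% and 16.1% of all genes tested did. For antisense counts it was higher in apex in 2 of 43 members and lower in 1, where 4.96% and 3.05% of all genes tested were.

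**Figure D5:**
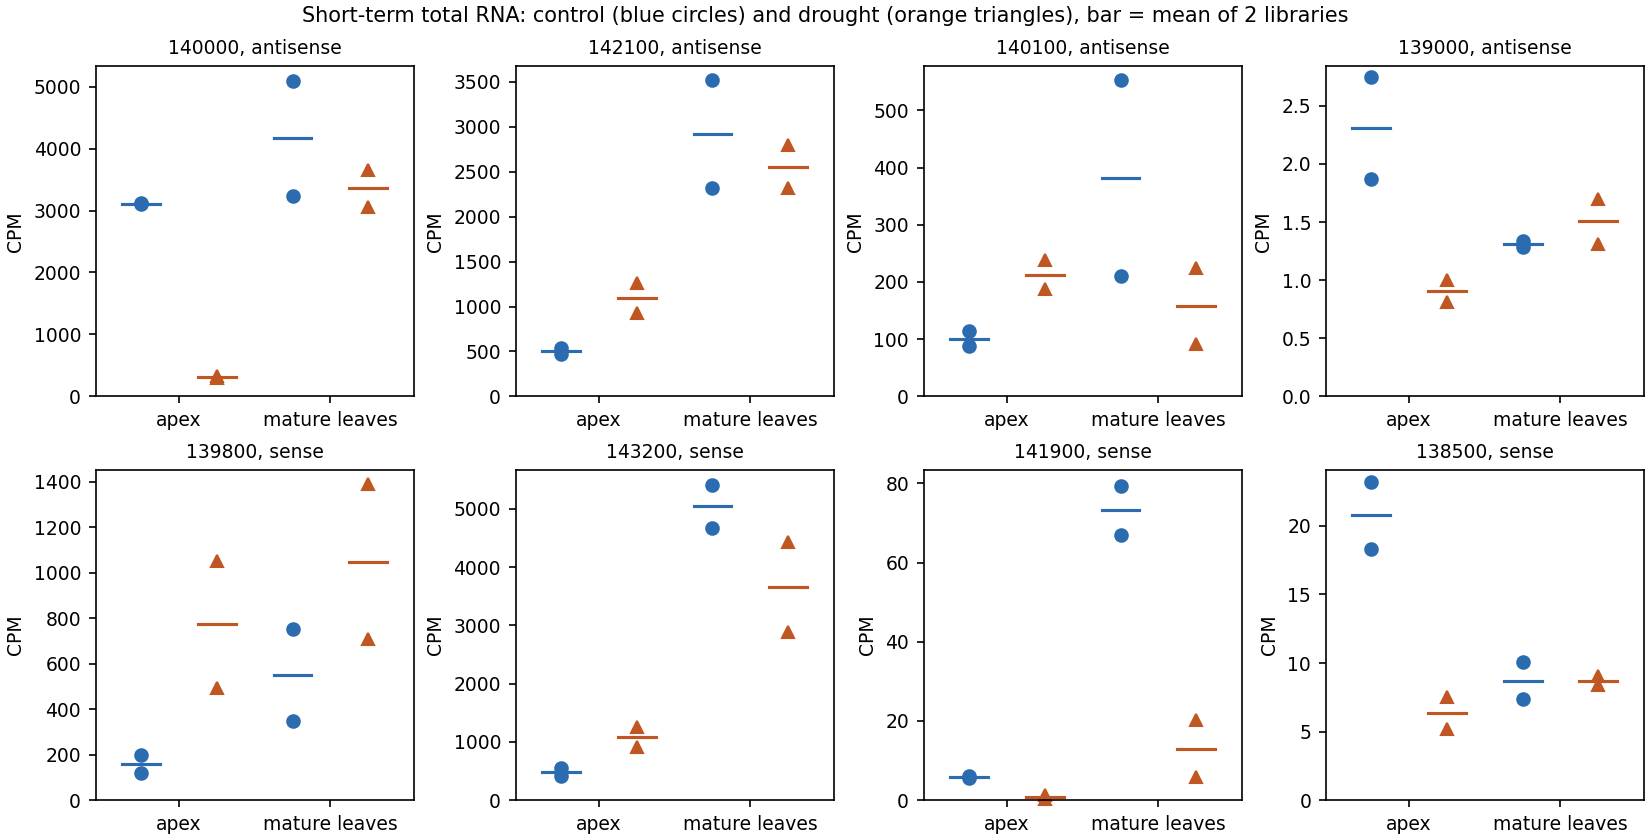
CPM of 8 strands in the short-term total RNA libraries of apex and mature leaves (blue circles control, orange triangles drought, bar the mean of 2 libraries; each panel has its own axis from 0, and panels are named by the last 6 digits of the ID). Antisense Potri.013G140000 drops from 3116 and 3103 CPM to 299 and 337 CPM in apex, while its mature leaf groups overlap.

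After 25 days of drought the leading antisense members of the shoot did not pass the test, and single libraries differed widely. In mature leaves, antisense Potri.013G139800 was 10608 and 18782 CPM in controls, 39812 in drought 64 and 1309 in drought 68. The 2 drought libraries thus differed 30.4-fold from each other and lay on either side of both controls. Antisense Potri.013G139200 was 3814 and 6050 CPM in controls and 15265 and 352 under drought, and sense Potri.013G139900 was 3214 and 5405 and then 10489 and 503. Young leaves had the same order, with antisense Potri.013G139800 at 7071 and 5261 CPM in controls, 7497 in drought 64 and 1706 in drought 68. In apex, drought 68 exceeded drought 64 and both lay above the controls, where 42.9% of all antisense genes tested had no overlap in either direction. Controls stood at 331 and 401 CPM, drought 64 at 493 and drought 68 at 1044. The log2 change of antisense Potri.013G139800 was 0.46 (SE 1.30, adjusted p = 0.882) in mature leaves, -0.47 (SE 0.68, adjusted p = 0.727) in young leaves and 1.07 (SE 0.31, adjusted p = 0.224) in apex.

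In counts, edgeR called 0 of 10 antisense and 0 of 19 sense members in mature leaves, where 1.78% and 5.65% of all genes tested were called and 0 members of either strand had an unadjusted p under 0.05. DESeq2 called 0 in both. For unadjusted p, DESeq2 and left-out libraries no share over all genes is given here, so the counts of members do not measure the block. Without drought 64, 5 antisense and 4 sense members fell, and without drought 68, 2 antisense and 3 sense members rose. In young leaves edgeR called 0 of 11 antisense members, where 7.82% of all genes were called, with 1 at an unadjusted p under 0.05 and 0 by DESeq2. Without drought 64, 3 antisense and 4 sense members were called there, and without control 70, 1 antisense member. In apex it called 0 of 6 antisense and 0 of 11 sense members, where 0.883% and 0.164% of all genes were called, with 4 members on each strand at an unadjusted p under 0.05 and 1 and 2 called by DESeq2. Without control 63, control 70 or drought 64, 1, 2 and 3 antisense members rose in apex, and without drought 68, 1 sense member. Sense Potri.013G142100 rose in young leaves, from 9.03 and 15.4 CPM to 31.4 and 31.5, a log2 change of 1.32 (SE 0.24, adjusted p = 0.0155). This was the 1 call among 33 sense members tested, where 4.68% of all genes rose, and it held without any 1 library (adjusted p at most 0.0203).

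In root, the 3 leading antisense members rose with 25 days of drought in mRNA, and antisense Potri.013G140100 and Potri.013G139800 also rose in total RNA. The mRNA and total RNA libraries of root are paired by title number, so the rises in total RNA are not independent of those in mRNA. In mRNA, antisense Potri.013G139200 changed by 0.80 (SE 0.21, adjusted p = 0.0365), Potri.013G139800 by 0.75 (SE 0.19, adjusted p = 0.0354) and Potri.013G140100 by 0.68 (SE 0.16, adjusted p = 0.0290). They were 3 of 4 members tested, where 13.8% of all genes rose. The median log2 change over all antisense genes tested was 0.24 in root mRNA and 0.13 in root total RNA. With antisense counts scaled by their own totals none of the 3 passed (adjusted p = 0.161, 0.153 and 0.174), and none passed without control 63 or 70 (largest adjusted p 0.281, 0.267 and 0.256). With DESeq2, antisense Potri.013G139200 and Potri.013G140100 had adjusted p of 0.0585 and 0.0662. In total RNA, antisense Potri.013G140100 was 74.9 and 61.2 CPM in controls and 142 and 135 under drought, a change of 1.03 (SE 0.17, adjusted p = 0.00349). It held without any 1 library and with own totals. Antisense Potri.013G139800 changed by 0.78 (SE 0.18, adjusted p = 0.0173, failing at 0.197 without control 70) and antisense Potri.013G141000 by 0.66 (SE 0.17, adjusted p = 0.0283, failing at up to 0.262 without control 63 or 70, at 0.0787 with DESeq2 and at 0.0589 with own antisense totals). These were 3 of 41 members tested, where 10% of all genes rose, and without drought 64, 6 were called.

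On the sense strand of root total RNA, 6 of 47 members rose and 1 fell, where 12.2% of all genes rose and 14.1% fell. Sense Potri.013G143200 was 3.31 and 5.17 CPM in controls and 10.7 and 19.6 under drought, a log2 change of 1.84 (SE 0.38, adjusted p = 0.0293). Sense Potri.013G139500 changed by 0.77 (SE 0.18, adjusted p = 0.0406), sense Potri.013G138900 by 0.67 (SE 0.13, adjusted p = 0.0232) and sense Potri.013G142000 by -0.67 (SE 0.17, adjusted p = 0.0436). Each failed without at least 3 of the 4 libraries in turn (largest adjusted p 0.124, 0.204, 0.128 and 0.217). With control 63, control 70, drought 64 or drought 68 left out, 1, 2, 4 and 0 sense members were called. The opposite strands of the mRNA leaders, which showed the largest folds, did not pass: sense Potri.013G139800 changed by 2.52 (SE 0.74, adjusted p = 0.0655), sense Potri.013G140100 by 2.46 (SE 0.75, adjusted p = 0.0723) and antisense Potri.013G139900 by 2.54 (SE 1.04, adjusted p = 0.238). In root mRNA 1 of 10 sense members was called, Potri.013G137200, where 13% of all genes rose. It had 4 reads in both controls together and failed without control 63, control 70 or drought 64 (adjusted p at most 0.273), without a count filter (0.0643) and with DESeq2 (0.173), and could not be tested without drought 68.

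In mRNA, intron reads were led by Potri.013G140100 and Potri.013G139900. The intron tables held 35 entries covering 36 members, with none for Potri.013G139200, Potri.013G139800 or Potri.013G140000. Of these entries, 11 had no read and 19 had at least 100. Potri.013G140100 was the 1 of these 19 with more antisense than sense intron reads, 782759 against 12350. In long-term mature leaves its introns had 430524 antisense and 176 sense reads. It held 99.6% to 100% of the block's antisense intron reads in every mRNA library, and 32.3% to 87.7% in total RNA. Potri.013G139900 had 249665 sense and 19218 antisense intron reads. It held 95.8% to 99.7% of the block's sense intron reads in mRNA and 1.46% to 18.0% in total RNA. In its place, Potri.013G141000 held 54.0% to 72.1% of sense intron reads in short-term total RNA. The block took 4.20% to 49.1% of all antisense intron reads in long-term mature leaves and 0.208% to 0.667% in root total RNA. The intron tables were described only and not tested.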

How the data were processed

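Each of 28 libraries of Populus trichocarpa came with 4 tables of raw read counts as the authors deposited them, for genes and for introns on either strand. TopHat2 2.1.0 and HTSeq 0.6.0 are listed, with DESeq2, in the submitters' processing notes. The genome build, the annotation and the counting options are not given in the sources used here. Lines that name no gene stood in 20 sense and 24 antisense gene tables. They held 3.37% to 12.5% of sense table counts and stayed out of totals and tests. In the antisense tables they held the reads of the other strand. By a check, the sense gene tables of 12 libraries and the sense intron tables of 4 appear to hold both strands. This was contrary to what had been assumed when the tests were laid down, and the antisense counts were subtracted. As the counting options are unknown, the subtraction may not recover every sense count. Tests that use these libraries left out 709 genes, 0 of them members. In those genes the antisense count exceeded the sense table in at least 1 of the 12. Of the member intron values, 2 fell below 0 and were set to 0.

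Tests used edgeR 4.0.16 (R 4.3.3) on all genes passing its default filter (a scaled count of 10 and 15 in total), TMM, robust quasi-likelihood fits and Benjamini-Hochberg adjustment over all genes tested, called under 0.05. Antisense counts took the effective sense library sizes. The ratio test had 1 term per library. SE is the log2 fold change over the root of F. Ratios at 1 to 3 reads have 95% exact intervals and 0 reads a floor of 3, covering counting error only. The fits were tested on simulated counts. No replicate pair agreed within counting noise.

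Members and lists were chosen with earlier results of these data known. Named members were the 8 with most antisense and the 8 with most sense reads, the 10 IDs nearest the range, and up to 3 per direction, comparison and strand with the largest called folds and groups that did not overlap (the last condition was not applied to the ratio and the interaction). Title numbers pair the root libraries: deviations of same-numbered libraries from their group means correlated over 19152 genes at 0.80 in control and 0.84 in drought. Other alternatives were DESeq2 1.42.0, RLE size factors, TMM without the block, no count filter, own antisense totals, the sense tables as deposited and each library left out.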

Additional observations from a re-analysis of the deposited data

Results flagged for a closer look

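These results were flagged because the effect of 24 hours of drought differed between apex and mature leaves by a test of the difference itself (the apex change minus the mature leaf change, edgeR's quasi-likelihood test over all genes). On the sense strand 11 of 52 members differed, 8 with a higher value in apex and 3 with a lower one, where 12.2% and 16.1% of all genes tested did. On the antisense strand 3 of 43 differed, 2 higher and 1 lower, where 4.96% and 3.05% of all genes did.

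Antisense Potri.013G140000 had a difference of -3.10 (SE 0.39, adjusted p = 0.00114). It dropped in apex, from 3116 and 3103 CPM to 299 and 337 CPM, while its mature leaf groups overlapped. Antisense Potri.013G140900 had a difference of 2.46 (SE 0.63, adjusted p = 0.0450). It went from 4.08 and 4.23 CPM to 12.6 and 5.51 in apex and from 30.5 and 13.3 to 7.20 and 8.73 in mature leaves, and failed without apex control 19 or 49 or mature leaf drought 35 or 69 (adjusted p up to 0.166). Antisense Potri.013G141300 had a difference of 1.69 (SE 0.41, adjusted p = 0.0208). It failed without apex control 49 or mature leaf control 19 (adjusted p up to 0.0715) and with antisense counts scaled by their own totals (adjusted p = 0.128).

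On the sense strand, the difference was 1.98 for Potri.013G141000 (SE 0.44, adjusted p = 0.0110), which fell in mature leaves and was 350 and 347 CPM in apex controls and 677 and 427 under drought. It was -1.82 for Potri.013G138500 (SE 0.34, adjusted p = 0.00504), which fell in apex. These 2 held without any 1 library. It was 1.63 for Potri.013G137300 (adjusted p = 0.0225), 1.52 for Potri.013G143200 (adjusted p = 0.0185), -0.96 for Potri.013G142200 (adjusted p = 0.0349) and -0.80 for Potri.013G140700 (adjusted p = 0.0429). These 4 failed without at least 3 of the 8 libraries in turn (largest adjusted p 0.0749, 0.0814, 0.123 and 0.134), and sense Potri.013G140700 also failed with RLE size factors (0.0553). No cause of these differences was tested.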

How the results depend on the processing

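Over the alternatives, the 71 results for single named members gave 761 values, of which 623 kept their call, 138 lost it and 0 changed direction. In all, 37 of the 71 lost their call somewhere. With 2 libraries a group, single libraries decide many calls. The count filter also limits which members can be tested, such as 4 of 66 antisense members for drought in root mRNA. The effect of depth and the causes of the changes below were not tested. Leaving out 1 library at a time gave 16 to 31 sense and 2 to 18 antisense calls for drought in short-term apex (26 and 11 with all libraries), 0 to 18 and 0 to 16 in short-term mature leaves (9 and 0), 0 to 1 and 0 to 3 in long-term apex (0 and 0), 1 to 4 and 0 to 3 in young leaves (1 and 0), 0 to 4 and 0 to 5 in long-term mature leaves (0 and 0), 0 to 1 and 0 to 3 in root mRNA (1 and 3), and 0 to 4 and 2 to 6 in root total RNA (7 and 3). Root total RNA against mRNA gave 48 to 49 sense, 41 to 41 antisense and 10 to 12 ratio calls. Leaves against root gave 15 to 31 and 6 to 10, leaves against apex 3 to 25 and 2 to 6, mature leaves against apex 21 to 31 and 6 to 14, and the interaction 3 to 14 and 1 to 6. Where an arm kept 1 library, it was assumed to vary like the others. Shares of all genes tested are given only for the edgeR tests with all libraries. Counts of members under other settings therefore do not measure the block.

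DESeq2 called 15 sense members for drought in short-term mature leaves, 2 in long-term apex and 11 in root total RNA, 23 for leaves against apex and 17 for the interaction. On the antisense strand it called 1 in short-term mature leaves, 1 in long-term apex, 1 in root mRNA, 10 for leaves against apex and 5 for the interaction. Without a count filter, antisense calls numbered 4 in short-term mature leaves, 3 in long-term apex, 1 in young leaves, 3 for leaves against apex and 5 for the interaction, sense calls in root mRNA numbered 0, and ratio calls 9. RLE size factors gave 1 antisense call in short-term mature leaves. Own antisense totals gave 2 there and 0 in root mRNA. The sense tables as deposited, an alternative chosen after seeing the data, moved no count by more than 1.5 times.

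The labels do not say what a title number marks. Deviations of same-numbered shoot libraries correlated at 0.49 and 0.47 between young and mature leaves, 0.03 and 0.33 between short-term tissues, and -0.02 to 0.29 between the other long-term tissues, so the numbers were not taken to pair all shoot libraries, although the leaf libraries went together. With the replicate number as a block, leaves against apex gave 21 sense and 8 antisense calls and the antisense interaction gave 5. The block moved no other count by more than 1.5 times. Control and drought libraries share no numbers, so no paired analysis was possible within a drought comparison.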
